A study of Mus musculus with 24 samples.

Results

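The genes described here are 39 macrophage and myeloid genes, taken by symbol from a fixed list out of the 41549 genes in the expression table of a mouse islet experiment. They comprise the M-CSF receptor Csf1r and its ligand Csf1, surface proteins of tissue macrophages, complement genes, Fc receptors with their adaptors, leukocyte integrins, sensors of microbial products, enzymes of the oxidative burst and general leukocyte genes. No measured value was used to choose them, but the list was drawn up with earlier results of these data known. The RNA came from dispersed islet cells of wild-type mice, which the methods describe as C57BL/6NRj animals of both sexes aged 12 to 14 weeks. All cells were transfected with 50 pmol of a locked nucleic acid inhibitor (an antisense oligonucleotide, ASO), either a control (Ctr) or one directed at the 5' fragment of tRNA-Glu-CTC (αGlu). They then received 0.5 mM palmitate (PA) bound to albumin, or albumin alone (BSA, 0.75%), for 48 h. Crossing ASO and lipid gives the groups Ctr BSA and Ctr PA, and αGlu BSA with αGlu PA. These 4 groups held 6 libraries each, numbered S1 to S24, with 3 of each group in batch 1 (S1 to S12) and 3 in batch 2 (S13 to S24), as the sample records give it. No cells were sorted, so the libraries hold the RNA of every cell type left in the dispersed islets, and in such bulk samples fewer macrophages and less RNA per macrophage cannot be told apart.

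Islets contain resident macrophages that lie close to the endocrine cells and the vessels. Such cells depend on signalling through CSF1R, the receptor of CSF1 and IL34, and on the transcription factor PU.1, encoded by Spi1. They take up debris and lipid through scavenger and Fc receptors, make the chains of complement C1q and lysozyme, and can release cytokines that act on beta-cells.

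The agent that separates the αGlu from the Ctr groups is shown with its target to give the length of the pairing. The capitals in the target mark the 20 bases, positions 2 to 21, that are the reverse complement of the inhibitor.
αGlu inhibitor: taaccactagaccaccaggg
target: tCCCTGGTGGTCTAGTGGTTA

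The 250 bases before the RefSeq start (GRCm38.p6) are shown for 3 members that changed with palmitate, all clear of annotated exons. C1qb (chr4:136886201-136886450, minus strand) and Itgam (chr7:128062390-128062639, plus strand) are macrophage genes, and Csf1 (chr3:107760470-107760719, minus strand) is the growth factor gene. Capitals mark GAGGAA or its reverse complement TTCCTC, the core of the box bound by PU.1, which was searched on both strands.
C1qb: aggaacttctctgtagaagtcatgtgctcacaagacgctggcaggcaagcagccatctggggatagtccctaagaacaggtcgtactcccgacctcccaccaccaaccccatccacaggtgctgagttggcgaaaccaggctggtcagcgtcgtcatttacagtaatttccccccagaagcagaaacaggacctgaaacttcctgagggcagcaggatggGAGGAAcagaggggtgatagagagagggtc
Itgam: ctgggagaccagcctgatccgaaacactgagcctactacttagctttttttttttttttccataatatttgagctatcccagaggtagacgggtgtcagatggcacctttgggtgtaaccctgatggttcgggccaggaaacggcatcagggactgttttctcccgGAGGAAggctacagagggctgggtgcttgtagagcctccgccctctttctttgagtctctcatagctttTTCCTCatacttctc
Csf1: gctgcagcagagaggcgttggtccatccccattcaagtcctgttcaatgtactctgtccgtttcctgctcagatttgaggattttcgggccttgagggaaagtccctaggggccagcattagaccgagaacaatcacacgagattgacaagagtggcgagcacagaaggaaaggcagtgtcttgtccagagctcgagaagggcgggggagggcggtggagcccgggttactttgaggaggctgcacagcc
The promoter table matched 30 of the 39 members. The 6 letters occurred in 14 of these 30 genes and in 25.9% of the 27025 genes in the table, and C1qb held 1 copy, Itgam 2 and Csf1 0 in the window shown. Such a match is a description of the letters only.

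The members spanned a wide range of levels. Per kilobase of exon, the median level in Ctr BSA was highest for C1qa, which encodes the A chain of C1q, at 87.5 CPM (counts scaled to a common library size) per kb, followed by Csf1 at 27.6, Lyz2 (lysozyme) at 18.9, Tlr2 at 9.78, Csf2ra (the GM-CSF receptor alpha chain) at 7.97 and Cd68 at 7.41. All other members lay at 2.20 CPM per kb or lower, and Ptprc, the pan-leukocyte marker CD45, was at 0.0682. The length used was that of all annotated exons of a gene merged, 18313 bases for Ptprc, so this value depends on the annotation. Its median before scaling by length was 1.25 CPM. At library totals of 18214719 to 35001979 counts, 34 members passed the filter on low counts. The 5 that did not were Cx3cr1, Ccr2, Fcgr1, Cd52 and Aif1. Cx3cr1, the fractalkine receptor, had 0 to 71 counts in the Ctr BSA libraries, and in Ctr PA a single count in a single library. The monocyte receptor Ccr2 was at 0 in 19 of the 24 libraries, with at most 9 counts. Fcgr1, Cd52 and Aif1 reached 21, 90 and 54 counts in their highest library and had medians of 3.5, 3.5 and 3 counts.

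Some libraries stood apart in these genes. Ctr BSA library S21 held the highest value of all 24 libraries for 32 of the 39 members, and the highest of its group for 36. Within αGlu PA, library S8 was the highest for 31 members, while S12 had 0 counts for 20 members, more than any other library (Ctr PA library S11 had 12, and the others 7 or fewer). The members still present in S12 included C1qa, with 1947 counts, Csf1, with 1040, Tlr2, with 880, Csf2ra, with 823, and Cd68, with 257. With C1qa, Csf1, Csf2ra and Tlr2 left out, the remaining members summed to 460 CPM in S21, to 117 in S8 and to 26.6 in S12. On the same sum, αGlu BSA libraries S2 and S10 were low, at 40.25 and 42.77 CPM. The αGlu BSA libraries S6, S14, S18 and S22 ran from 70.07 to 140.8 CPM, and the Ctr PA libraries from 34.51 to 52.88 CPM. Lymphocyte markers were few: the summed level of 18 genes of T, B and NK cells was 10.7 CPM in S21, 8.57 CPM in Ctr BSA library S1 and lower in the others, down to 2.58 CPM, Trac was at 0 in every library and Cd3e had at most 2 counts. Cd4, on the same list, stood out in S21, with 115 counts there and at most 28 in any other library. The 13 genes of neutrophils and mast cells summed to at most 0.454 CPM in any library. The share of counts from mitochondrial genes was 6.03% in S21 and ran from 3.52% to 8.83% over all libraries.

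**Figure D1:**
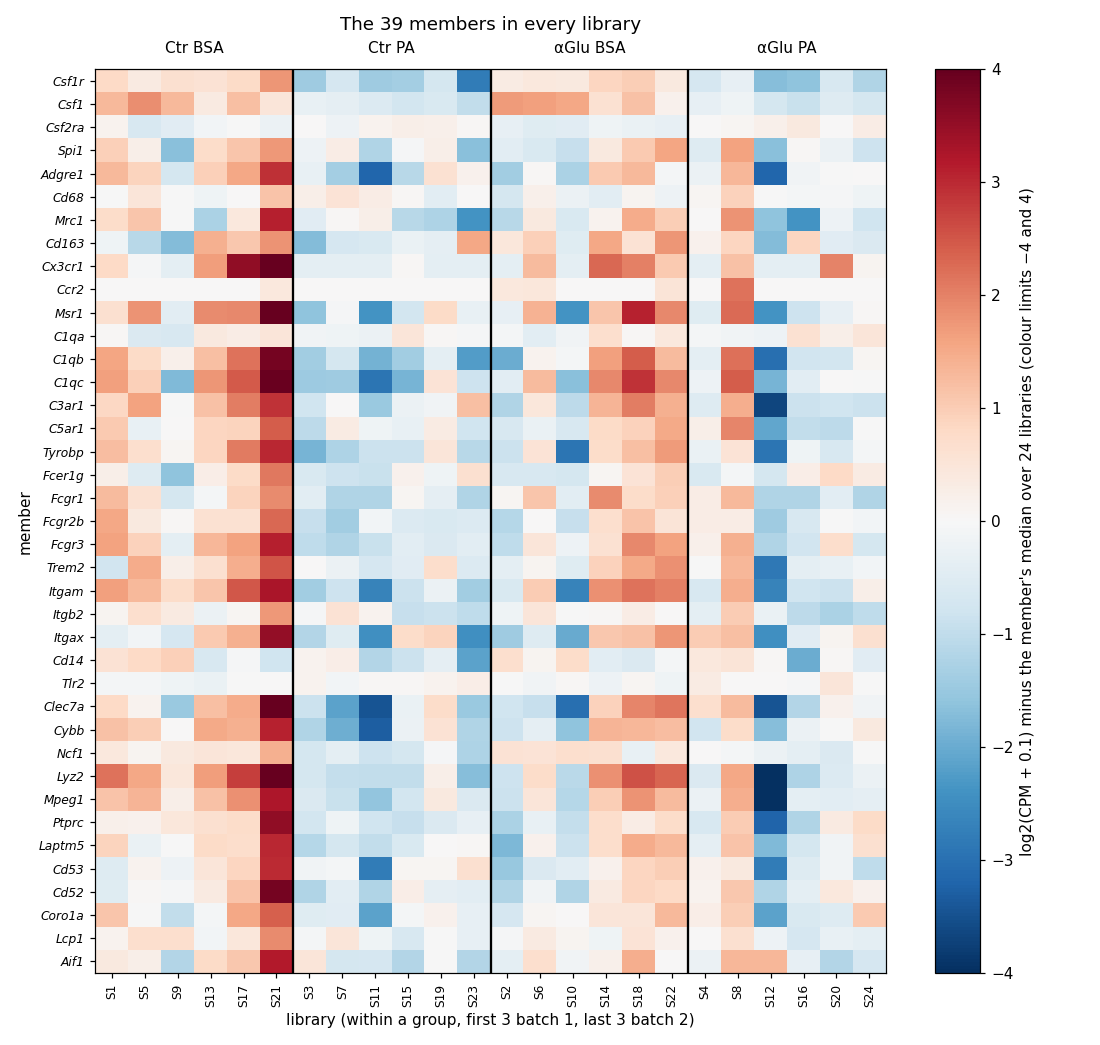
Level of the 39 members (rows) in each of the 24 libraries (columns, by group), as log2(CPM + 0.1) minus the median of the member over all libraries; red is above and blue below that median. The column of S21 is red for most members, that of S12 is blue for most, and the rows of C1qa, Tlr2 and Csf2ra are pale throughout.

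With the control ASO, palmitate lowered most of the macrophage genes. Of the 34 members tested, 22 fell and 1 rose at an adjusted p below 0.05 (edgeR's quasi-likelihood test on counts, all 24 libraries, batch as a term, Benjamini-Hochberg adjustment over all 15916 genes). Over all genes tested, 14.5% fell and 15.5% rose in this comparison. The median log2 fold change of the members was -1.77, against 0.01 over all genes. By the threshold of the study, a fold change above 2 with p below 0.05, applied here to the p before adjustment, 23 members were lower and 0 higher, beside 5.06% and 0.854% of all genes. In 9 members every Ctr PA library lay below every Ctr BSA library in CPM, and in 0 every one lay above, against 2.86% and 2.97% of all genes. Without S21, 12 of the 22 members still passed as lower, and the 10 that did not were Adgre1, Mrc1, Msr1, C3ar1, Itgb2, Clec7a, Ptprc, Laptm5, Coro1a and Lcp1. The members' median was then -1.18, and 2151 of 16030 genes fell. Without S21 and S8 together, 17 members passed as lower, beside 2121 of 15993 genes, and the members' median was -1.195.

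Under αGlu, the same treatment lowered 3 members, Csf1r, Csf1 and Ncf1, and raised Csf2ra. The shares of all genes called were 14.2% lower and 14.4% higher. The members' median log2 fold change was -0.36, against 0.01 over all genes, and -0.94 without S8. The threshold of the study, applied in the same way, called 2 members lower and 0 higher, beside 4.74% and 0.823% of all genes. Groups without overlap were found for 2 members on the lower side and 1 on the higher side, with 3.95% and 4.17% of all genes. Without library S8, 10 members passed as lower, namely Csf1r, Csf1, Msr1, C1qb, C1qc, C3ar1, Itgam, Itgb2, Lyz2 and Mpeg1, and Ncf1 no longer did. Over all genes, 2091 of 16060 fell without S8. With S21 and S8 both left out, 13 members passed as lower, beside 2092 of 15993 genes, Trem2, Lcp1 and Ncf1 being added to these 10 members. This omission was chosen after the high values of S8 were seen, so it lowers the αGlu PA values. S12, with the most members at 0, was kept in that fit, as were the low αGlu BSA libraries S2 and S10. With S12 left out as well, 10 members passed as lower, beside 1817 of 16173 genes. Trem2, Lcp1 and Ncf1 then did not pass (edgeR, adjusted p = 0.0863, 0.0844 and 0.0713). Averaged over both ASOs, 18 members fell and 2 rose with palmitate, Csf2ra and Tlr2, against 22% and 23.4% of all genes.

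**Figure D2:**
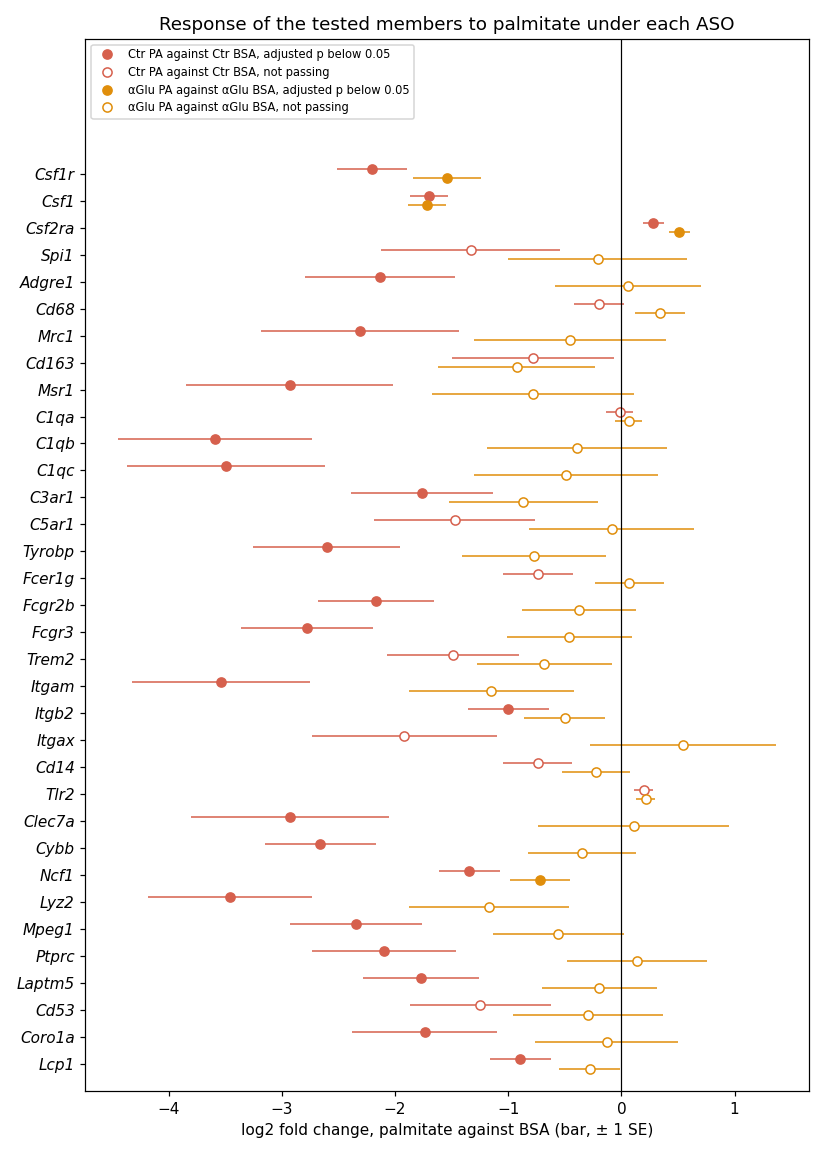
Log2 fold change with palmitate (x axis, ± 1 SE) of the 34 tested members (y axis, by role) under the control ASO (red) and under αGlu (orange); filled points passed an adjusted p of 0.05. Most red points lie between -1 and -3.6, most orange points lie nearer to 0 and are open, and Csf1r and Csf1 are filled and left of -1 in both.

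Among the 4 genes of growth factor receptors, ligand and lineage, Csf1r and Csf1 fell and Csf2ra rose under both ASOs, and Spi1 did not pass. Csf1r ran from 4.95 to 13.1 CPM (median 6.26) in Ctr BSA and from 0.465 to 2.33 CPM (median 1.38) in Ctr PA. In the αGlu groups it ran from 4.76 to 7.58 CPM (median 5.08) in BSA and from 1.11 to 3.05 CPM (median 1.98) in PA. All PA libraries were below all BSA libraries under either ASO. The log2 fold change was -2.20 ± 0.31 (SE, n = 6 per group) in Ctr cells (edgeR, adjusted p = 8.05e-06) and -1.54 ± 0.30 in αGlu cells (adjusted p = 3.95e-04), and it was negative in each batch. Csf1r lies on the plus strand of chromosome 18 (GRCm38, 61100598 to 61132149) and overlaps Hmgxb3 on the other strand. Hmgxb3 had 906 to 2091 counts, against 13 to 370 for Csf1r, and log2 fold changes of -0.17 and -0.06 in the same 2 comparisons. The sources used here do not say whether strand was used in counting. The other members that passed in a palmitate comparison and overlap an annotated gene are Mrc1, Fcgr2b, Fcgr3, Itgam, Ncf1, Ptprc, Coro1a and Lcp1, whose counts are uncertain to that extent.

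Csf1 encodes the ligand of the receptor and is also made by cells that are not macrophages. Its levels were 77.7 to 219.9 CPM (median 145.6) in Ctr BSA and 31.2 to 49.7 CPM (median 40.8) in Ctr PA. Under αGlu they were 68.2 to 198.9 CPM (median 158.9) in BSA and 33.1 to 54.8 CPM (median 40.0) in PA. The groups did not overlap under either ASO, and S5, not S21, was the highest Ctr BSA library. Csf1 fell by 1.70 ± 0.17 (SE) on the log2 scale in Ctr cells and by 1.72 ± 0.17 in αGlu cells (adjusted p = 9.52e-08 and 9.08e-08). Il34, which encodes the other ligand and is named here after its values were seen, fell by 0.99 ± 0.36 and by 1.47 ± 0.38 (adjusted p = 0.0423 and 0.00509).

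Csf2ra was the member that rose. It ran from 16.6 to 28.2 CPM (median 22.9) in Ctr BSA and from 22.5 to 30.2 CPM (median 27.3) in Ctr PA, and from 18.4 to 22.8 CPM (median 20.2) in αGlu BSA and from 25.8 to 33.5 CPM (median 28.3) in αGlu PA. The αGlu groups were apart and the Ctr groups overlapped. The increase was 0.28 ± 0.09 (SE) in Ctr cells (adjusted p = 0.0250, and 0.0545 without S21, with the call also lost without S5, S9 or S11) and 0.51 ± 0.09 in αGlu cells (adjusted p = 1.95e-04). Spi1 had at most 27 counts in a library, and its log2 fold changes were -1.33 ± 0.79 and -0.21 ± 0.79 (adjusted p = 0.212 and 0.874).

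Of the 7 surface genes of tissue macrophages, 5 were tested and 3 fell in Ctr cells, Adgre1, Mrc1 and Msr1. None of the 3 passed without S21. Adgre1, which encodes F4/80, ran from 0.454 to 6.72 CPM (median 1.89) in Ctr BSA and from 0 to 1.27 CPM (median 0.478) in Ctr PA. In αGlu BSA it ran from 0.247 to 2.14 CPM (median 0.798) and in αGlu PA from 0 to 2.16 CPM (median 0.765). The groups overlapped in both pairs, and the log2 fold changes were -2.13 ± 0.66 (SE) in Ctr cells (adjusted p = 0.0170) and 0.06 ± 0.65 in αGlu cells (adjusted p = 0.960).

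Mrc1, the mannose receptor gene, ran from 0.118 to 4.35 CPM (median 0.685) in Ctr BSA and from 0 to 0.518 CPM (median 0.212) in Ctr PA. Its αGlu levels were 0.141 to 1.35 CPM (median 0.525) in BSA and 0 to 1.70 CPM (median 0.276) in PA. S21 was far above the next library of its group, which held 1.02 CPM. The log2 fold change was -2.31 ± 0.87 (SE) in Ctr cells (adjusted p = 0.0474), -1.21 without S21 (adjusted p = 0.268), and -0.46 ± 0.85 in αGlu cells (adjusted p = 0.735). The call in Ctr cells was lost in 13 fits that left out 1 library, S21 among them. Msr1, a scavenger receptor gene, had 0.289 to 8.52 CPM (median 1.76) in Ctr BSA and 0 to 0.794 CPM (median 0.267) in Ctr PA. The corresponding αGlu values were 0 to 4.33 CPM (median 1.14) and 0 to 2.39 CPM (median 0.295). Its log2 fold changes were -2.93 ± 0.91 (adjusted p = 0.0175) and -0.78 ± 0.89 (adjusted p = 0.558, and -2.51 with 0.0186 when S21 and S8 were left out), with 0 counts in αGlu BSA library S10, αGlu PA library S12 and Ctr PA library S11. Cd68, a lysosomal glycoprotein gene that other cells also express, and the scavenger receptor Cd163 did not pass in either comparison. Cd68 had log2 fold changes of -0.20 and 0.34, and Cd163, with at most 30 counts in a library, of -0.78 and -0.93.

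**Figure D3:**
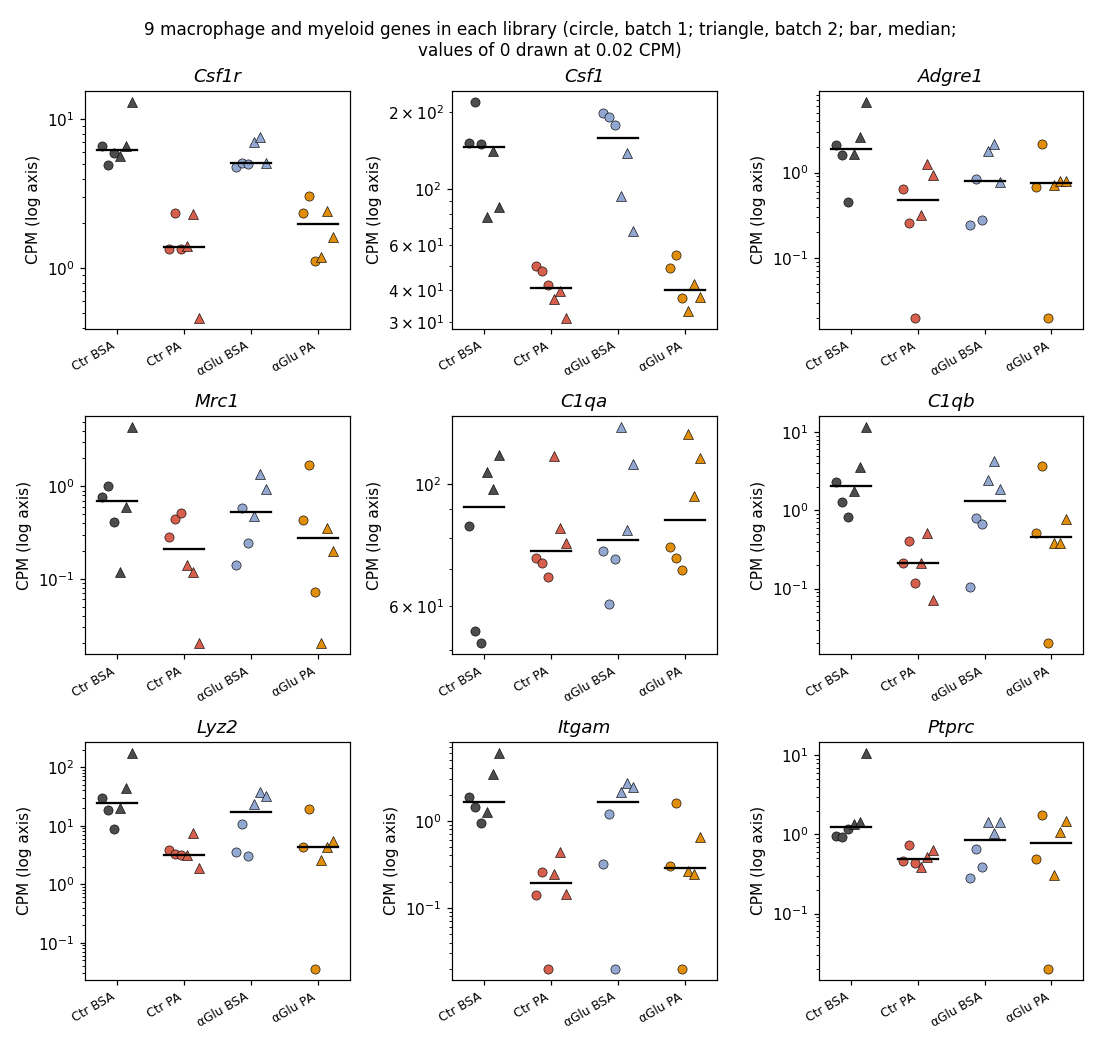
CPM (log axis) of 9 members in every library by group; circles are batch 1, triangles batch 2, bars group medians, and values of 0 are drawn at 0.02. Csf1r and Csf1 are lower in PA under both ASOs, C1qa stays between 51.3 and 127 CPM, and C1qb, Lyz2, Itgam and Ptprc have a high point, S21, in Ctr BSA.

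The 3 chains of C1q, which recognises immune complexes and debris, did not move together. C1qa, C1qb and C1qc lie side by side on the minus strand of chromosome 4 (GRCm38, 136880129 to 136898803). C1qa ran from 51.3 to 113 CPM (median 91.0) in Ctr BSA and from 67.7 to 112.5 CPM (median 75.8) in Ctr PA, with log2 fold changes of -0.02 ± 0.12 (SE) in Ctr and 0.06 ± 0.12 in αGlu cells (adjusted p = 0.934 and 0.736). C1qb ran from 0.826 to 11.5 CPM (median 2.05) in Ctr BSA and from 0.0716 to 0.516 CPM (median 0.212) in Ctr PA. C1qc had 0.124 to 11.7 CPM (median 2.37) in Ctr BSA and 0 to 0.993 CPM (median 0.180) in Ctr PA. C1qb and C1qc fell by 3.59 ± 0.85 and by 3.49 ± 0.88 on the log2 scale in Ctr cells (adjusted p = 0.00254 and 0.00395), and by 2.92 and by 2.87 without S21 (adjusted p = 0.00990 and 0.0160).

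In αGlu BSA, C1qb ran from 0.106 to 4.25 CPM (median 1.33), and in αGlu PA from 0 to 3.67 CPM (median 0.452). C1qc ran from 0.139 to 5.52 CPM (median 2.25) and from 0.108 to 3.94 CPM (median 0.597). S8 was the highest αGlu PA library for both, and all other αGlu PA libraries held less than the αGlu BSA median. The log2 fold changes in αGlu cells were -0.39 ± 0.79 and -0.49 ± 0.81 (adjusted p = 0.757 and 0.703), and -1.91 and -2.06 with S21 and S8 both left out (adjusted p = 0.0230 and 0.0208). Per count of C1qb and C1qc together, S21 had 4.87 counts of C1qa and S12 had 649. No other annotated gene overlaps C1qa.

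Among the receptors for complement fragments, C3ar1 fell in Ctr cells and C5ar1 did not pass. C3ar1 ran from 1.16 to 9.37 CPM (median 3.31) in Ctr BSA and from 0.359 to 2.86 CPM (median 1.03) in Ctr PA. Its αGlu values were 0.458 to 5.16 CPM (median 2.41) in BSA and 0 to 3.40 CPM (median 0.620) in PA. The groups overlapped in both pairs, with log2 fold changes of -1.76 ± 0.63 (SE, adjusted p = 0.0353, 0.0957 without S21, with the call lost in 7 fits that left out 1 library) and -0.87 ± 0.66 (adjusted p = 0.350). Without S21 and S8 the value in αGlu cells was -2.04 (adjusted p = 0.00798). C5ar1 had at most 62 counts in a library and log2 fold changes of -1.47 ± 0.71 and -0.09 ± 0.73 (adjusted p = 0.121 and 0.945).

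Fc receptors and their signalling adaptors were lowered in Ctr cells for 3 of the 5 tested, Tyrobp, Fcgr2b and Fcgr3, and all 3 passed without S21. Tyrobp, which encodes the adaptor DAP12, ran from 0.702 to 5.94 CPM (median 1.47) in Ctr BSA and from 0.106 to 0.953 CPM (median 0.284) in Ctr PA. In αGlu cells it ran from 0 to 2.34 CPM (median 1.08) in BSA and from 0 to 1.00 CPM (median 0.546) in PA. Tyrobp fell by 2.60 ± 0.65 (SE) on the log2 scale in Ctr cells (adjusted p = 0.00365), and its value in αGlu cells was -0.77 ± 0.64 (adjusted p = 0.394). Fcgr3, an activating IgG receptor gene, had 0.330 to 4.77 CPM (median 1.46) in Ctr BSA and 0.146 to 0.322 CPM (median 0.239) in Ctr PA, so that the groups did not overlap in CPM. The nearest libraries held 8 counts (Ctr BSA library S9) and 9 counts (Ctr PA library S23), so a few counts set this gap. In αGlu cells Fcgr3 had 0.176 to 2.03 CPM (median 0.718) in BSA and 0.143 to 1.39 CPM (median 0.396) in PA. It fell by 2.78 ± 0.58 in Ctr cells (adjusted p = 8.22e-04) and had -0.46 ± 0.55 in αGlu cells (adjusted p = 0.580).

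Fcgr2b, the inhibitory receptor gene, ran from 0.372 to 2.16 CPM (median 0.595) in Ctr BSA and from 0.0729 to 0.319 CPM (median 0.205) in Ctr PA, again without overlap in CPM. The nearest libraries held 9 counts (Ctr BSA library S9) and 8 counts (Ctr PA library S11). The αGlu ranges were 0.106 to 0.913 CPM (median 0.457) and 0.0717 to 0.463 CPM (median 0.336). Fcgr2b fell by 2.17 ± 0.51 (SE) in Ctr cells (adjusted p = 0.00227) and had -0.37 ± 0.50 in αGlu cells (adjusted p = 0.6254). Fcer1g, the common Fc gamma chain gene, and Trem2, a lipid-sensing receptor gene that signals through DAP12, did not pass, with log2 fold changes in Ctr cells of -0.74 ± 0.31 and -1.49 ± 0.58 (adjusted p = 0.0764 and 0.0567). In αGlu cells Trem2 had -0.68 (adjusted p = 0.423), and -1.44 without S21 and S8 (adjusted p = 0.0499). With S12 also left out, the value for Trem2 was -1.16 (adjusted p = 0.0863).

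The integrin genes differed in their level and in the size of their response. Itgam, which encodes CD11b, ran from 0.950 to 6.05 CPM (median 1.66) in Ctr BSA and from 0 to 0.437 CPM (median 0.195) in Ctr PA. It fell by 3.54 ± 0.78 (SE) on the log2 scale (adjusted p = 0.00139) and by 3.22 without S21, and the groups did not overlap. In αGlu cells it ran from 0 to 2.74 CPM (median 1.66) in BSA and from 0 to 1.62 CPM (median 0.286) in PA, a log2 fold change of -1.15 ± 0.73 (adjusted p = 0.256), and -2.26 without S21 and S8 (adjusted p = 0.0161). Itgb2, the common beta chain gene CD18, ran from 2.37 to 9.48 CPM (median 3.31) in Ctr BSA and from 1.32 to 4.19 CPM (median 2.12) in Ctr PA. It fell by 1.00 ± 0.36 (adjusted p = 0.0371), with -0.48 and an adjusted p of 0.210 without S21, and lost its call in 5 fits that left out 1 library. Under αGlu it ran from 2.502 to 3.97 CPM (median 2.87) and from 1.12 to 5.83 CPM (median 1.72), with -0.50 ± 0.36 (adjusted p = 0.315), and -0.92 without S21 and S8 (adjusted p = 0.00319). Itgax, the CD11c gene shared with dendritic cells, ran from 0.248 to 6.15 CPM (median 0.720) in Ctr BSA and from 0 to 0.913 CPM (median 0.217) in Ctr PA. Its αGlu ranges were 0.0349 to 1.79 CPM (median 0.677) and 0 to 1.16 CPM (median 0.628). Neither response passed, with -1.92 ± 0.82 in Ctr cells (adjusted p = 0.0788) and 0.54 ± 0.82 in αGlu cells (adjusted p = 0.670).

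Among the sensors, Clec7a, which encodes the beta-glucan receptor Dectin-1, fell in Ctr cells. It ran from 0.289 to 22.7 CPM (median 2.11) in Ctr BSA and from 0 to 1.71 CPM (median 0.391) in Ctr PA. Its αGlu ranges were 0.0349 to 4.68 CPM (median 1.25) and 0 to 2.51 CPM (median 1.00). S21 held 643 counts, and the log2 fold change of -2.93 ± 0.88 (SE, adjusted p = 0.0133) was -1.79 without S21 (adjusted p = 0.109). In αGlu cells the value was 0.11 ± 0.84 (adjusted p = 0.940). Cd14 and Tlr2, which other islet cells can express, had log2 fold changes of -0.74 and 0.20 in Ctr cells and of -0.22 and 0.21 in αGlu cells, with no pass. Averaged over both ASOs, Tlr2 rose by 0.21 ± 0.06 (adjusted p = 0.00687).

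All 4 genes of effectors and the oxidative burst fell in Ctr cells, with and without S21. Lyz2, a gene abundant in macrophages, ran from 8.80 to 176.7 CPM (median 24.9) in Ctr BSA and from 1.90 to 7.46 CPM (median 3.21) in Ctr PA. In αGlu BSA it ran from 2.998 to 37.5 CPM (median 16.9) and in αGlu PA from 0.0359 to 18.99 CPM (median 4.27). The Ctr groups did not overlap and the αGlu groups did. Lyz2 fell by 3.46 ± 0.73 (SE) in Ctr cells (adjusted p = 8.49e-04) and by 2.69 without S21 (adjusted p = 0.00384), and its value in αGlu cells was -1.17 ± 0.71 (adjusted p = 0.226), or -2.33 without S21 and S8 (adjusted p = 0.00276). Reads of Lyz2 can also map to its paralog Lyz1, since the 2 lysozyme genes are near-identical in sequence.

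Cybb, which encodes the catalytic subunit of the phagocyte NADPH oxidase, ran from 1.28 to 11.5 CPM (median 3.25) in Ctr BSA and from 0.0399 to 1.95 CPM (median 0.499) in Ctr PA. Its αGlu ranges were 0.349 to 3.43 CPM (median 2.04) and 0.323 to 2.20 CPM (median 1.16). It fell by 2.66 ± 0.49 (SE) in Ctr cells (adjusted p = 2.23e-04), against -0.34 ± 0.48 in αGlu cells (adjusted p = 0.637). Ncf1, a cytosolic oxidase subunit gene, fell under both ASOs. It had 1.07 to 2.83 CPM (median 1.37) in Ctr BSA and 0.358 to 0.953 CPM (median 0.566) in Ctr PA. In αGlu cells it had 0.794 to 1.64 CPM (median 1.497) in BSA and 0.630 to 1.01 CPM (median 0.876) in PA. The log2 fold changes were -1.34 ± 0.27 (adjusted p = 5.64e-04) and -0.72 ± 0.26 (adjusted p = 0.0428), the second of which did not pass in 10 of the fits that left out 1 library. Mpeg1, which encodes the pore-forming perforin-2 of macrophages, ran from 4.21 to 34.6 CPM (median 8.81) in Ctr BSA and from 1.12 to 4.72 CPM (median 2.23) in Ctr PA. Under αGlu it ran from 1.57 to 12.8 CPM (median 6.15) and from 0 to 9.84 CPM (median 2.73). Mpeg1 fell by 2.34 ± 0.58 in Ctr cells (adjusted p = 0.00369) and had -0.56 ± 0.58 in αGlu cells (adjusted p = 0.509), or -1.44 without S21 and S8 (adjusted p = 0.0286).

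Of the 7 general leukocyte genes, 5 were tested and 4 fell in Ctr cells, none of which passed without S21. Ptprc ran from 0.935 to 10.8 CPM (median 1.25) in Ctr BSA and from 0.388 to 0.729 CPM (median 0.488) in Ctr PA, without overlap. Under αGlu it ran from 0.282 to 1.45 CPM (median 0.841) in BSA and from 0 to 1.78 CPM (median 0.787) in PA. In Ctr BSA, S21 held 305 counts of Ptprc and the median of the group was 32.5. The log2 fold changes were -2.10 ± 0.64 (SE, adjusted p = 0.0146) in Ctr cells, -1.15 without S21 (adjusted p = 0.118), and 0.13 ± 0.62 in αGlu cells (adjusted p = 0.897).

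Laptm5, a lysosomal membrane gene of blood cells, ran from 1.32 to 13.6 CPM (median 2.71) in Ctr BSA and from 0.673 to 1.65 CPM (median 0.985) in Ctr PA, with 0.388 to 4.65 CPM (median 2.22) and 0.394 to 3.67 CPM (median 1.33) in αGlu BSA and PA. Coro1a, an actin regulator gene, ran from 0.124 to 2.19 CPM (median 0.584) and from 0 to 0.397 CPM (median 0.235) in the Ctr groups, and from 0.176 to 0.979 CPM (median 0.437) and from 0 to 0.806 CPM (median 0.319) in the αGlu groups. Lcp1, the L-plastin gene, ran from 8.41 to 34.3 CPM (median 13.5) and from 5.79 to 12.9 CPM (median 8.41), and from 8.09 to 13.3 CPM (median 10.1) and from 5.72 to 14.4 CPM (median 7.71). All of these ranges overlapped between BSA and PA. The 3 genes fell by 1.77 ± 0.51, by 1.74 ± 0.64 and by 0.89 ± 0.27 on the log2 scale in Ctr cells (SE, adjusted p = 0.0107, 0.0429 and 0.0142), and their values in αGlu cells were -0.20, -0.13 and -0.28 (adjusted p = 0.811, 0.902 and 0.472). For Lcp1 that value was -0.47 without S21 and S8 (adjusted p = 0.0433), and -0.45 with S12 also left out (adjusted p = 0.0844). Coro1a lost its call in 11 fits that left out 1 library. Cd53, a tetraspanin gene, had -1.25 ± 0.62 and -0.30 ± 0.66 (adjusted p = 0.136 and 0.780).

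Whether the ASO changed these genes was asked in BSA, in PA and as the difference between both PA responses. In αGlu BSA against Ctr BSA, edgeR passed 0 members and 0 genes at an adjusted p of 0.05 (0% lower and 0% higher), and DESeq2 0 members. At an unadjusted p below 0.05, 7 members were lower (the 5 named next, Cd68 and Lcp1) and 0 higher. Over all genes, 461 of 15916 had such a p, in either direction. The threshold of the study called 5 members lower, Adgre1, Fcgr2b, Cybb, Lyz2 and Ptprc, and 0 higher, beside 0.641% and 0.145% of all genes, with log2 fold changes from -1.59 (Ptprc) to -1.07 (Fcgr2b). Without S21, 0 members met it, beside 71 genes lower and 27 higher of 16030, and the members' median moved from -0.75 to -0.19.

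In αGlu PA against Ctr PA, again 0 members and 0 genes passed by edgeR (0% lower and 0% higher), and 0 members by DESeq2, while 4 members had an unadjusted p below 0.05, all higher. They were C1qb, C1qc, Fcgr3 and Cybb, with log2 fold changes of 2.09 ± 0.87, 2.31 ± 0.92, 1.38 ± 0.60 and 1.06 ± 0.50 (SE). Each had an adjusted p of 0.993. Over all genes, 538 of 15916 had an unadjusted p below 0.05, in either direction. The threshold of the study called the same 4 members higher and 0 lower, beside 0.170% and 0.773% of all genes. Without S8 it called 1 member higher and 1 lower, beside 24 and 176 of 16060 genes, and the members' median moved from 0.66 to 0.08.

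The 2 PA responses use the 4 groups once each, so their difference can be tested directly. At an adjusted p of 0.05, 0 members and 0 genes passed by edgeR (0% lower and 0% higher), and 0 members by DESeq2. Of the 34 members, 32 had a positive value of the difference, meaning a higher log2 fold change under αGlu than under Ctr. An unadjusted p below 0.05 was found for 13 members, beside 332 of all 15916 genes in either direction. All 13 also met the threshold of the study, with 0 members on the other side, beside 0.427% higher and 0.226% lower over all genes. They were Adgre1, C1qb, C1qc, Fcgr2b, Fcgr3, Itgam, Itgax, Clec7a, Cybb, Lyz2, Mpeg1, Ptprc and Laptm5, with differences from 1.57 (Laptm5) to 3.20 (C1qb), and Cybb had the smallest unadjusted p, 0.00228 (adjusted p = 0.999). The median difference of the members was 1.48, against -0.01 over all genes. Without S21, 3 members met the threshold of the study, beside 50 of 16030 genes on the higher side, and the members' median was 0.78. Without S8, 4 members did, beside 42 of 16060 genes, and the median was 0.67. Without S21 and S8 together 1 member did, beside 44 of 15993 genes, and the median was 0.30. For Csf1 and C1qa the difference was -0.02 ± 0.23 and 0.08 ± 0.17 (SE), and for Csf1r it was 0.66 ± 0.42 (adjusted p = 0.999 each).

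**Figure D4:**
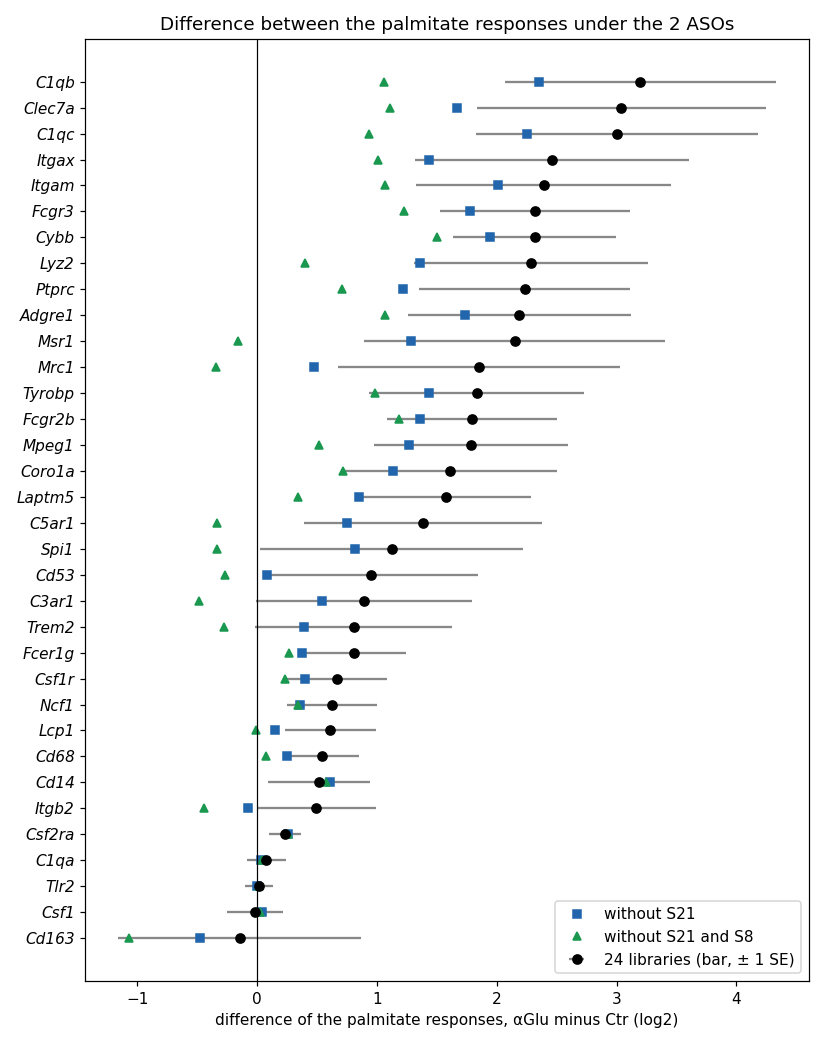
Difference between the palmitate responses, αGlu minus Ctr, on the log2 scale (x axis) for the 34 tested members (y axis), with all 24 libraries (black, ± 1 SE), without S21 (blue squares) and without S21 and S8 (green triangles). The black points reach 3.20 and the green ones lie nearer to 0 for most members, with a median of 0.30.

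Averaged over BSA and PA, 0 members differed between the ASOs by edgeR at an adjusted p of 0.05, 0 at an unadjusted p below 0.05 and 0 by DESeq2. At the adjusted p, 0.182% of all genes were lower and 0.0565% higher in αGlu cells. An unadjusted p below 0.05 was found for 620 of all 15916 genes. Of 10 genes of Schwann cells and other glia, 7 passed as lower with αGlu and 5 did so without S21, at medians of -2.605 and -2.48 on the log2 scale. Over all genes, 21 of 16030 passed as lower without S21. The list holds S100b, Gap43, Gfap and Foxd3, which the study had already reported as lower with αGlu in PA from these data. The count of 7 is therefore no independent result. The summed level of these 10 was 12.4 to 116.1 CPM in Ctr BSA and 16.1 to 83.1 CPM in Ctr PA, and 9.38 to 31.4 CPM in αGlu BSA and 9.15 to 15.3 CPM in αGlu PA. Their part in the values of the macrophage genes was not tested.

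Both batches were compared within each ASO. In Ctr cells, 28 of the 33 members tested in both batches were lower with PA in both, as were 37.5% of the 15515 genes tested in both. In batch 2 alone 24 of 35 members passed as lower, beside 5.76% of all genes, and in batch 1 alone 4 of 34, beside 5.96%, which were Csf1r, Csf1, Cybb and Ncf1. The members' median was -1.38 in batch 1 and -2.13 in batch 2. In αGlu cells, 24 of the 33 were higher with PA in batch 1 and lower in batch 2, against 11.1% of all genes, 5 were lower in both, against 38.4%, and the medians were 0.56 and -1.41. In batch 1 alone 2 members passed as lower, beside 5.09% of all genes, and in batch 2 alone 11, beside 6.24%. Batch 1 holds both S8 and S12, and also the low αGlu BSA libraries S2 and S10, which no fit left out together. The difference between batches was not tested. Between the batches themselves, 10 members were higher in batch 2 and 2 lower (Csf1 and Cd14) at an adjusted p of 0.05, beside 26.1% and 25.4% of all genes. Cybb differed by 1.52 ± 0.34 (SE), Fcer1g by 1.31 ± 0.22 and C1qa by 0.58 ± 0.08.

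**Figure D5:**
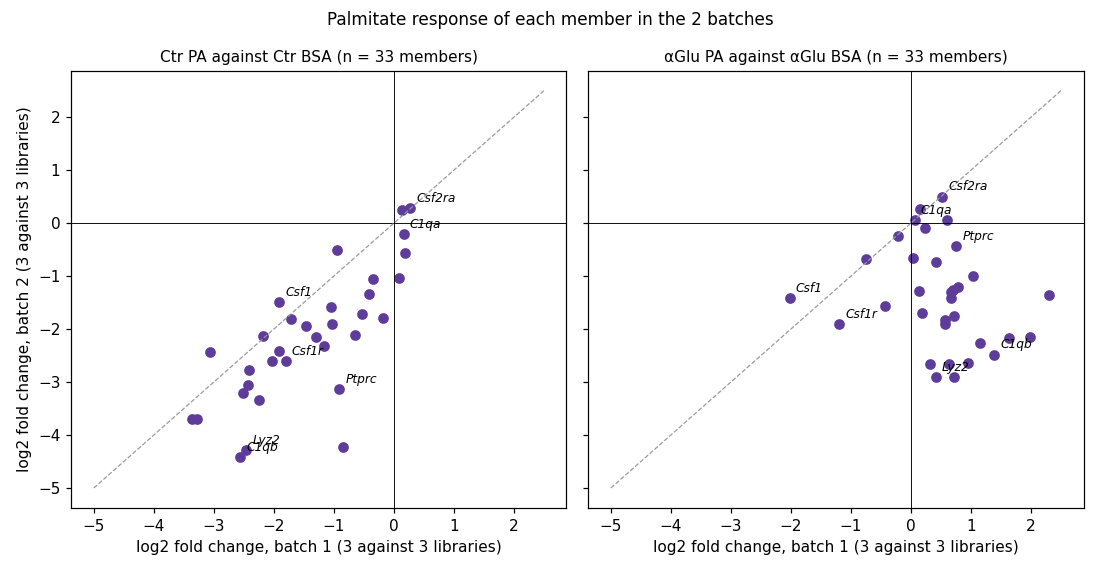
Log2 fold change with palmitate in batch 1 (x axis) and batch 2 (y axis), each from 3 against 3 libraries, for the 33 members tested in both; the left panel is Ctr and the right panel αGlu, and the dashed line marks equal values. In Ctr cells 28 points lie below 0 on both axes, and in αGlu cells 24 lie above 0 in batch 1 and below 0 in batch 2.

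Genes of the same pathway that are no members were counted from lists that hold them. Beside these counts, 14.5% of all genes tested fell and 15.5% rose in Ctr cells, where 2151 of 16030 fell without S21. In αGlu cells 14.2% of all genes fell and 14.4% rose. Of 41 other myeloid genes tested, 20 fell and 1 rose in Ctr cells, their median was -1.15 on the log2 scale, and 14 fell without S21. In αGlu cells 6 fell and 1 rose, with a median of -0.25. The genes of smallest p were Cyba, the membrane partner of Cybb, at -1.497 ± 0.27 (SE, adjusted p = 1.60e-04), Tlr13 at -1.38 ± 0.26 and Pld4 at -1.15 ± 0.24 in Ctr cells, and Cyba also led in αGlu cells at -1.61 ± 0.27 (adjusted p = 8.06e-05). Of 30 genes of CSF1R and CSF2R signalling, 4 of them members, 14 fell and 3 rose in Ctr cells and 7 fell and 4 rose in αGlu cells. Of 8 tested markers of macrophage polarization, 1 of them a member, 4 fell in Ctr cells and 1 in αGlu cells. The 4 were the member Mrc1, Apoe, Igf1 and Arg1, and Arg1 fell by only 0.23 ± 0.08 (adjusted p = 0.0397). Apoe, a lipid carrier gene that macrophages share with other cells, fell by 2.10 ± 0.33 in Ctr cells (adjusted p = 3.10e-05) and had -0.82 ± 0.32 in αGlu cells (adjusted p = 0.0579). Igf1, a growth factor gene, fell by 2.12 ± 0.37 and by 1.85 ± 0.37 (adjusted p = 1.39e-04 and 5.73e-04).

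Markers of some other cell types also moved with palmitate. The shares of all genes were again 14.5% lower and 15.5% higher in Ctr cells, and 14.2% and 14.4% in αGlu cells. Of 13 tested genes of fibroblasts and stellate cells, 11 fell in Ctr cells and 9 in αGlu cells, with medians of -2.70 and -2.27. In Ctr cells without S21, 8 fell, beside 2151 of 16030 genes. The summed level of the 14 listed was 691.9 to 1438 CPM in the Ctr BSA libraries and 59.8 to 252 CPM in the Ctr PA libraries. It was 408 to 2178 CPM in αGlu BSA and 51.5 to 322 CPM in αGlu PA, where S12 was the lowest and S8 the highest, as for the macrophage genes. Acta2, a contractile actin gene of activated stellate cells, fell, with log2 fold changes of -2.94 ± 0.32 (SE) in Ctr and -3.19 ± 0.32 in αGlu cells (adjusted p = 2.90e-07 and 1.52e-07). Of 9 acinar genes, 7 fell in Ctr and 6 in αGlu cells, of 14 endothelial genes 1 fell in each, and of 12 beta-cell genes 4 fell and 3 rose in Ctr and 2 fell and 3 rose in αGlu cells. Of 3 tested genes of T, B and NK cells, Cd79a and Cd79b fell in Ctr cells and Cd79b in αGlu cells, and of 2 tested genes of dendritic cells, Itgae fell in both. Of 10 glial genes 0 passed under either ASO, with medians of -0.60 in Ctr and -1.01 in αGlu cells, and 1 fell averaged over both ASOs. The part of these cell types in the change of the macrophage genes was not tested.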

How the data were processed

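The authors made libraries with a strand-specific Illumina mRNA kit and gene counts with the QIAGEN RNA-seq Analysis Portal on GRCm38, the build named in the submitters' processing notes. The deposited table holds raw counts per gene, as whole numbers with empty cells read here as 0, beside 72 columns of RPKM, TPM and CPM that were not used. The strand setting of the counting is not given in the sources used here. Of 41549 gene IDs, 41474 matched GENCODE M21, and 1 row without a gene held 0 counts. Totals were 18214719 to 35001979 counts per library.

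Groups and batches came from the sample records, and replicates are, per the methods, separate preparations. The study's reporting summary has the groups within a replicate share animals or passage, but the sample records do not name these sets, so the model is unpaired. Counts were filtered with filterByExpr (minimum count 10), which kept 15916 genes, scaled by TMM and fitted with edgeR 4.0.16 (R 4.3.3, limma 3.58.1) by the quasi-likelihood test, with 4 groups and batch in 1 model over 24 libraries. A call needed a Benjamini-Hochberg adjusted p below 0.05. CPM values were computed on TMM-scaled library sizes. The members and lists were chosen with earlier results of these data known. All members were named by role, with group ranges for those that passed a palmitate comparison or met the threshold of the study in an ASO comparison, and at most 3 genes of smallest p were named from each other list. Alternatives were DESeq2 1.42.0, its size factors, robust spread, other filters, no batch term, 2 groups only, each batch, the threshold of the study (on p before adjustment, a choice made here) and each library left out. On simulated counts for Ctr PA against Ctr BSA (15762 genes), 76.5% of genes changed 2-fold and 91% changed 4-fold were recovered, with 12 false calls. The changed genes were drawn at random from all genes passing the filter, and neither a batch effect nor an outlying library was simulated. These rates therefore need not hold for the members, many of which have few counts. Tables and figures were made with python 3.11.15, pandas 2.3.3 and matplotlib 3.10.9. Promoter sequences are from RefSeq (GRCm38.p6). Small RNA, proteomic and human data were not used here.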

Additional observations from a re-analysis of the deposited data

Results flagged for a closer look

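In each of the 4 groups of 6 libraries, a member was noted where its highest or lowest library was separated from the next by a larger share of the range of the group than Dixon's 95% critical value. Of 136 combinations of a tested member and a group, 41 were noted. For normally distributed values chance alone notes about 1 in 20 such groups. The rule was applied to CPM without a log, often from few counts, so that rate need not hold here. Members are not independent of each other here, because the same libraries recur.

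Ctr BSA library S21 was the high library in 20 of the 41: Csf1r (13.1 CPM), Adgre1 (6.72 CPM), Mrc1 (4.35 CPM), Msr1 (8.52 CPM), C1qb (11.5 CPM), C1qc (11.7 CPM), C5ar1 (2.19 CPM), Fcer1g (7.11 CPM), Fcgr3 (4.77 CPM), Itgb2 (9.48 CPM), Itgax (6.15 CPM), Clec7a (22.7 CPM), Cybb (11.5 CPM), Ncf1 (2.83 CPM), Lyz2 (176.7 CPM), Mpeg1 (34.6 CPM), Ptprc (10.8 CPM), Laptm5 (13.6 CPM), Cd53 (5.30 CPM) and Lcp1 (34.3 CPM).

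αGlu PA library S8 was the high library for Spi1 (0.888 CPM), Adgre1 (2.16 CPM), Cd68 (17.8 CPM), Mrc1 (1.70 CPM), Msr1 (2.39 CPM), C1qb (3.67 CPM), C1qc (3.94 CPM), C3ar1 (3.40 CPM), C5ar1 (1.54 CPM), Trem2 (1.74 CPM), Itgb2 (5.83 CPM), Lyz2 (18.99 CPM) and Mpeg1 (9.84 CPM).

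Ctr PA library S19 was high for C1qc (0.993 CPM), Tyrobp (0.953 CPM), Lyz2 (7.46 CPM) and Mpeg1 (4.72 CPM). Ctr PA library S23 was high for Cd163 (0.859 CPM) and C3ar1 (2.86 CPM), and Ctr PA library S15 for C1qa (112.5 CPM). In αGlu BSA, library S18 was low for Ncf1 (0.794 CPM).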

How the results depend on the processing

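No paired analysis was possible because the labels do not tie libraries across groups: each of the 24 libraries carries its own number, so no replicate block could be fitted. The study states that the groups of a replicate of primary islet cells shared their animals or passage, so such sets may exist here, and every call rests on a model that leaves them out.

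Leaving out 1 library at a time gave 12 to 26 members lower and 0 to 2 higher in Ctr PA against Ctr BSA (12 without S21), and 2 to 10 lower and 1 to 2 higher in αGlu PA against αGlu BSA (10 without S8). Averaged over both ASOs the count lower with palmitate ran from 16 to 26, and between the batches the counts ran from 2 to 5 lower (5 without S21) and from 8 to 23 higher (23 without S8, 16 without S16). In the 3 ASO comparisons and the ASO average these counts stayed at 0. The members' median log2 fold change ran from -2.00 to -1.18 in Ctr cells, from -0.94 to -0.14 in αGlu cells and from 0.67 to 1.73 for the difference of both responses.

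The 1 member higher in Ctr PA, Csf2ra, was lost (0 higher) with no batch term, with only the 2 groups compared, in either batch alone, at the threshold of the study and without S21 and S8, or S21, S8 and S12. In αGlu cells the count higher was 0 in batch 1 and at the threshold of the study, and 2 without S21, S8 and S12. The count lower was 4 for batch 1 alone in Ctr cells, and in αGlu cells 11 for batch 2 alone (median -1.41), 13 without S21 and S8 and 10 without S21, S8 and S12. Averaged over both ASOs, batch 1 alone gave 3 lower and 1 higher, batch 2 alone 1 higher, and the threshold of the study 0 higher. The threshold of the study also gave 5 lower in αGlu BSA against Ctr BSA, 4 higher in αGlu PA against Ctr PA, 13 higher for the difference and 1 lower between batches. Without S21 and S8 the median difference was 0.30, and without S21, S8 and S12 it was 0.36, while 20 members were higher in batch 2 in either case. These joint omissions were chosen after seeing the data. Fits within 1 batch rest on 3 libraries a group; otherwise the cause was not tested.

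Of 835 alternative counts and medians, 793 stayed within 1.5 times the value or 1 SD between replicates and 42 did not. That SD is 0.99 on the log2 scale, a wide limit. Medians that moved from -0.75 to -0.19 (αGlu BSA against Ctr BSA, without S21) or from 0.66 to 0.08 (αGlu PA against Ctr PA, without S8) counted as staying. The 793 also hold the ASO counts that were 0 in the main fit and stayed at 0. Single members were followed only in comparisons where they had passed with all 24 libraries. Of these 2052 alternative values, 1876 kept direction and call, 176 lost the call and 0 changed direction. Members that had not passed were outside this count. Under αGlu, 24 of 33 members were higher with PA in batch 1 and lower in batch 2. DESeq2 called 24 members lower in Ctr PA and 3 in αGlu PA. Depth limits the members of few counts: 5 were not tested, and Spi1, Cd163, Fcgr2b, Mrc1, Coro1a and C5ar1 had medians of 6 to 11 counts per library, so that a few counts set their values.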
